A study of Homo sapiens with 12 samples.

Results

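Transcripts of 10 genes of the YAP and TEAD axis were followed in cells of squamous carcinoma of the head and neck (HNSCC) given cetuximab or left untreated. The genes were chosen by name, and each stood on a single line of the count tables, which held 33514 gene symbols. The tables use the older symbols CTGF and CYR61 for CCN2 and CCN1, and these are kept here. All 10 passed the filter on low counts and were among the 17897 genes tested.

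YAP (gene YAP1) and TAZ (gene WWTR1) are coactivators without a DNA-binding domain of their own, and they act on genes by joining the TEAD factors on DNA. The Hippo kinases, among them LATS2, phosphorylate YAP and TAZ and keep them out of the nucleus, whereas spread, loosely packed cells let them in. CTGF, CYR61 and ANKRD1 are the usual readouts of this activity, and AMOTL2, AJUBA and LATS2 are both parts of the pathway and transcripts that respond to it.

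The 12 samples came from 3 established HNSCC lines, SCC1 (UM-SCC-1), SCC6 (UM-SCC-6) and SCC25, profiled by droplet single-cell RNA sequencing, which counts transcripts as unique molecular identifiers (UMIs). Each line received 100 nM cetuximab, an antibody against the receptor EGFR, daily for 5 days or phosphate-buffered saline (PBS) in its place, with 2 replicates per group. Each group is thus a culture of 1 line, and a difference between lines is one among 3 lines. Whether the replicates of a group were separate cultures is not clear from the sources used here, so that errors and p-values may cover the spread between libraries only.

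The samples held 961 to 2854 cells, 23914 in all, with 57057402 to 112170073 UMIs per sample and a median of 24078.5 to 54864 UMIs per cell. All 10 squamous markers were detected in every sample, KRT17, SFN, PERP and DSP at no less than 492, 134, 542 and 105 CPM (a linear scale, UMIs of a gene relative to the library total after TMM scaling), while the lowest samples of KRT5, KRT14, KRT6A and DSG3 had 1.16, 0.424, 2.86 and 0.163 CPM. Their summed level went from 6362 and 7099 CPM with PBS to 11217 and 10615 CPM with cetuximab in SCC1 and from 2010 and 1585 to 3315 and 3889 CPM in SCC6, and overlapped in SCC25 (7811 and 13539, and 9998 and 15357 CPM). Of 5 leukocyte markers, PTPRC, CD3E and LYZ reached at most 0.0691, 0.0129 and 0.0583 CPM and CD79A 2.70 CPM, whereas CD68, a lysosomal protein, ranged from 3.30 to 205 CPM. The leukocyte sum lay between 120 and 206 CPM in SCC25 and between 4.58 and 33.2 CPM in the other lines.

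The summed level of 8 fibroblast markers moved with cetuximab in each line, from 7.53 and 7.23 to 15.4 and 16.6 CPM in SCC1, from 1.15 and 3.33 to 27.3 and 23.0 CPM in SCC6, and from 21.9 and 42.5 to 46.5 and 84.3 CPM in SCC25. LUM, COL1A1 and COL1A2 reached 58.0, 22.6 and 13.4 CPM, and PDGFRA and THY1 stayed at or below 0.185 and 1.99 CPM. In SCC1 and SCC6 1 to 4 of the 8 were at 0 in a sample, in SCC25 0 of 8. The part of these marker sums in the results was not tested. Summed UMIs cannot tell fewer cells with a transcript from less of it per cell, and shares of positive cells are therefore given as well.

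To place these genes on the DNA, the 250 bases before each start site and the 50 bases after it were searched for GGAATG or its reverse complement CATTCC, the core letters that TEAD factors are known to bind. RefSeq (GRCh38.p14) gave such a window for 7 of the 10 genes. The letters were found in 14% of all 35116 windows, and 3 or more copies in 0.128%. CTGF had 3 copies, ANKRD1 had 2, and AMOTL2, AJUBA, LATS2 and YAP1 had 1 in a window, whereas WWTR1 had 0. AMOTL2 and AJUBA each had another window with 0 copies, and the copy of LATS2 lay after the start site. Counted by gene, 16.7% of all genes with a window had the letters in any window. The stretches of the classical targets CTGF and ANKRD1 and of YAP1 itself are shown 5′ to 3′ as the gene reads, with the letters searched in capitals.
CTGF, chr6:131951442-131951561, minus strand: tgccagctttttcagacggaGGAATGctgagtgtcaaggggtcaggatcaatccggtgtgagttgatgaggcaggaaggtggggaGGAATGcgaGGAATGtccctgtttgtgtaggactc
ANKRD1, chr10:90921190-90921327, minus strand: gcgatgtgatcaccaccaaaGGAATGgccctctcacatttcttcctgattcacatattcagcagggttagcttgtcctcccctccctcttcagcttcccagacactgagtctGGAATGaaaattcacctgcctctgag
YAP1, chr11:102110265-102110310, plus strand: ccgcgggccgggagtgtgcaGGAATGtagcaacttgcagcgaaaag

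The copies of CTGF began 169, 104 and 95 bases before the start site, the last pair in close spacing. In ANKRD1 they began 220 and 128 bases before it. A match of letters is a description and not a binding site.

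The first comparison asked how the 10 genes changed with cetuximab within each line. In SCC1, CTGF, CYR61, ANKRD1, AMOTL2, AJUBA and LATS2 were each higher in both cetuximab samples than in both PBS samples, which held for 22.3% of all genes tested in that line. The fold changes ran from 1.17 for AJUBA to 4.72 for ANKRD1, while YAP1, WWTR1, TEAD1 and TEAD4 overlapped between treatments. CTGF, ANKRD1 and AJUBA were separated in the same direction in SCC6, and ANKRD1, AMOTL2, AJUBA and LATS2 in SCC25, where 25.5% and 14.4% of genes were. After adjustment over all genes in edgeR, 0 of the 10 passed an FDR of 0.05 in SCC1 (3 genes, 0.0168%, did), 0 in SCC6 (3.81%) and 0 in SCC25 (0%).

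At an unadjusted p under 0.05, ANKRD1 passed in SCC1, CTGF and AJUBA in SCC6, and AMOTL2 and AJUBA in SCC25, where 8.77%, 19.9% and 5.82% of all genes did. DESeq2 called AJUBA in SCC6 (9.6% of all genes) and 0 of the 10 in SCC1 (1.7%) and SCC25 (0.617%). Same-numbered PBS and cetuximab samples deviated together, and with the replicate number as a block in the edgeR fit, CTGF and ANKRD1 passed in SCC1 (4.45% of all genes), CTGF and AJUBA in SCC6 (20.1%) and 0 of the 10 in SCC25 (0.978%).

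**Figure D1:**
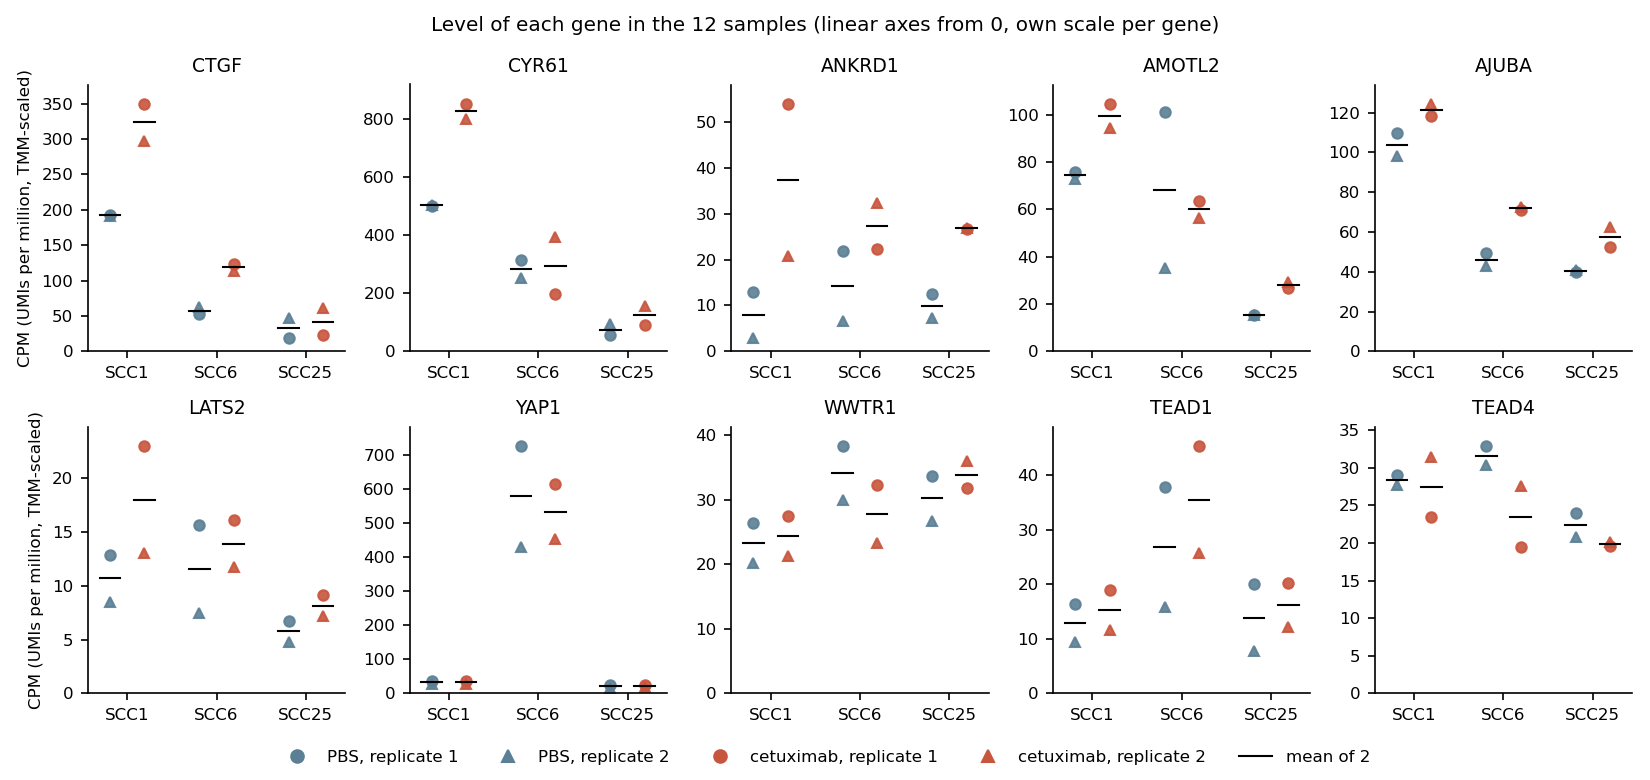
Level of each gene in CPM (linear axes from 0) in the 12 samples, by line, with PBS in blue-grey, cetuximab in red, circles and triangles for replicates 1 and 2, and bars for the mean of 2. CTGF, ANKRD1 and AJUBA stand higher with cetuximab in all 3 lines with overlap only for CTGF in SCC25, and YAP1 is at 431 to 725 CPM in SCC6 against 17.1 to 37.2 CPM in the other lines.

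Among the secreted targets, CTGF (chromosome 6, 131948176 to 131951372) encodes a matricellular protein that binds integrins and growth factors. In SCC1 it stood at 193 and 192 CPM with PBS and at 349 and 298 CPM with cetuximab. SCC6 had 52.3 and 62.7 CPM with PBS and 123 and 114 CPM with cetuximab. Treated and untreated samples did not overlap in either line, and the paired log2 changes were 0.85 and 0.64 in SCC1 and 1.24 and 0.86 in SCC6.

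CTGF in SCC25 stood at 18.8 and 47.6 CPM with PBS and at 22.5 and 61.2 CPM with cetuximab. Here replicate 2 exceeded replicate 1 under both treatments by more than the treatments differed, and the groups overlapped, although both pairs were higher with cetuximab, by 0.26 and 0.36 on the log2 scale. The log2 fold change without the block was 0.75 ± 0.46 (SE) in SCC1, 1.05 ± 0.46 in SCC6 and 0.33 ± 0.46 in SCC25, with FDR of 0.745, 0.245 and 1 by edgeR with Benjamini-Hochberg adjustment. With the replicate block the changes were 0.75 ± 0.14, 1.05 ± 0.14 and 0.31 ± 0.14, and the FDR was 0.0254 in SCC1, 0.00281 in SCC6 and, for SCC25, 0.331.

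CYR61 (chromosome 1, 85580761 to 85583950), the sister matricellular protein and an early-response transcript, stood at 502 and 506 CPM with PBS and at 852 and 803 CPM with cetuximab in SCC1. In SCC25 the values were 56.3 and 93.2 CPM with PBS and 91.6 and 157 CPM with cetuximab, so that the groups overlapped narrowly while both pairs were higher with cetuximab. SCC6 split by replicate, with 314 and 253 CPM in PBS and 199 and 393 CPM in cetuximab, so that the log2 ratio was −0.66 in pair 1 and 0.64 in pair 2. The adjusted p of CYR61 did not pass in any line in edgeR (FDR 0.643 in SCC1, 0.960 in SCC6, 0.895 in SCC25) or with the replicate block (0.155, 0.997 and 0.228).

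The summed level of 11 immediate early and dissociation genes (FOS, JUN, EGR1, ATF3 and others) differed between the same SCC6 samples, at 2047 CPM in cetuximab replicate 1 and 3261 CPM in replicate 2 against 2959 and 2929 CPM in PBS. In SCC25 that sum also followed the replicate, with 1407 and 2616 CPM in PBS and 1157 and 2021 CPM in cetuximab, as CTGF did there. In SCC1 it was 1818 and 1813 CPM in PBS and 2230 and 2142 CPM in cetuximab. Its part in the changes of CTGF and CYR61 was not tested.

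ANKRD1 (chromosome 10, 90912096 to 90921087), a cofactor of transcription first known from muscle, stood at 12.9 and 2.94 CPM with PBS and at 53.8 and 20.9 CPM with cetuximab in SCC1. In SCC6 it stood at 21.8 and 6.63 CPM with PBS and at 22.4 and 32.3 CPM with cetuximab. The SCC25 values were 12.5 and 7.17 CPM with PBS and 26.7 and 26.8 CPM with cetuximab. Both treated samples lay above both untreated samples in all 3 lines, narrowly in SCC6. PBS replicate 1 exceeded PBS replicate 2 in each line, and the log2 fold change of 2.24 ± 0.74 (SE) in SCC1 had an FDR of 0.383 in edgeR. With the replicate block it was 2.43 ± 0.47 (FDR 0.0298).

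Of the pathway parts, AJUBA (chromosome 14, 22971177 to 22982551) is a LIM-domain scaffold that restrains LATS kinases at cell junctions. It stood at 109 and 98.1 CPM with PBS and 118 and 124 CPM with cetuximab in SCC1, at 49.3 and 43.0 CPM against 71.1 and 72.7 CPM in SCC6, and at 39.9 and 40.7 CPM against 52.4 and 62.3 CPM in SCC25. The groups were apart in every line, and the spread within groups was small. SCC1 had a log2 fold change of 0.22 ± 0.18 (SE), SCC6 one of 0.64 ± 0.18 and SCC25 one of 0.51 ± 0.18. In SCC6 the FDR was 0.0761 by edgeR, 0.00598 by DESeq2 and 0.0146 with the replicate block.

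AMOTL2 (chromosome 3, 134355345 to 134375417), an angiomotin-like protein that holds YAP at junctions, was higher with cetuximab in SCC1 (75.7 and 73.0 against 104 and 94.3 CPM) and in SCC25 (15.4 and 15.3 against 26.9 and 29.3 CPM). SCC6 did not follow, because its PBS samples differed from each other at 101 and 35.1 CPM and enclosed the cetuximab samples at 63.5 and 56.4 CPM. None of these changes passed in edgeR (FDR 0.874 in SCC1, 0.828 in SCC25), with the replicate block (0.435 and 0.184) or in DESeq2.

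LATS2 (chromosome 13, 20973036 to 21061586), the kinase that phosphorylates YAP and is also raised by it, stood at 12.9 and 8.54 CPM with PBS and at 23.0 and 13.1 CPM with cetuximab in SCC1. In SCC6 the values were 15.7 and 7.50 CPM and 16.1 and 11.7 CPM, and in SCC25 6.73 and 4.82 CPM and 9.12 and 7.17 CPM, in the same order. All 6 pairs were higher with cetuximab, by 0.04 to 0.84 on the log2 scale. The FDR in SCC1 was 0.671 in edgeR and 0.0505 with the replicate block.

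The coactivators and DNA-binding factors moved less. YAP1 stood at 36.3 and 28.9 CPM with PBS and 37.2 and 28.9 CPM with cetuximab in SCC1, and at 24.9 and 17.1 CPM against 25.9 and 19.9 CPM in SCC25. WWTR1 (chromosome 3, 149517235 to 149724788) ranged over 20.3 to 38.3 CPM in the 12 samples and was higher with cetuximab in 3 of 6 pairs. The changes of both were small relative to their replicates, with log2 fold changes of −0.12 ± 0.30 (SE) to 0.13 ± 0.31 for YAP1 and −0.30 ± 0.25 to 0.16 ± 0.25 for WWTR1 over the 3 lines. By CPM, YAP1 was higher with cetuximab in 5 of 6 pairs. With cells thinned to an equal number of UMIs it was higher in 6 of 6, by 0.05 to 0.31 on the log2 scale.

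TEAD1 (chromosome 11, 12674421 to 12944737) was higher in all 6 pairs, by 0.01 to 0.69 on the log2 scale, within the distance between replicates of a group. Replicate 1 was the higher one in 6 of 6 groups, a difference that same-numbered samples share. The TEAD1 change across lines was 0.29 ± 0.29 (SE, FDR 0.629 in edgeR) and 0.35 ± 0.10 with the replicate block (FDR 0.0607), and passed in neither fit. TEAD4 (chromosome 12, 2959397 to 3040676) was the only member lower with cetuximab in 5 of 6 pairs, with 32.9 and 30.4 CPM in PBS and 19.5 and 27.5 CPM in cetuximab in SCC6. It was below both PBS samples in both cetuximab samples of SCC6 and SCC25, as were 21.4% and 15.3% of genes, but passed in neither, with log2 fold changes of −0.43 ± 0.22 (FDR 0.321) and −0.18 ± 0.22 (FDR 1) in edgeR.

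**Figure D2:**
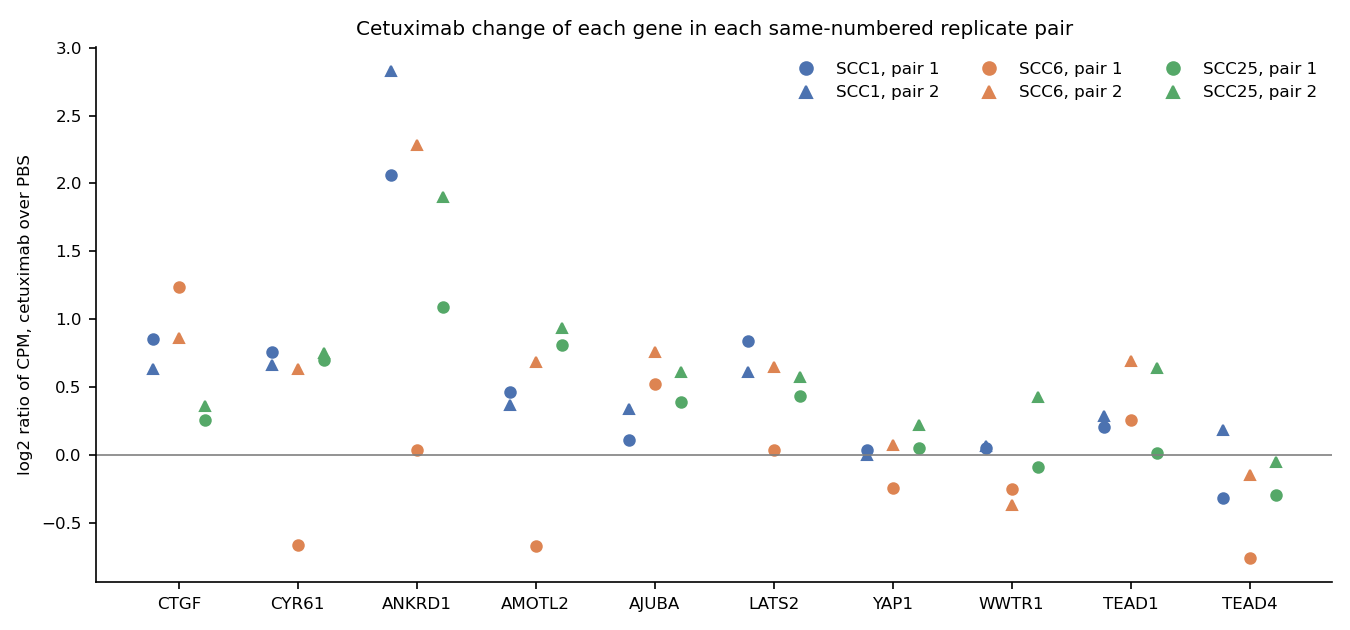
Log2 ratio of CPM, cetuximab over PBS, for each gene in each same-numbered pair (circles pair 1, triangles pair 2), coloured by line. CTGF, ANKRD1, AJUBA, LATS2 and TEAD1 lie above 0 in 6 of 6 pairs, and pair 1 of SCC6 lies below 0 for CYR61 at −0.66 and AMOTL2 at −0.67.

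Over the 3 lines together, CTGF, ANKRD1, AJUBA, LATS2 and TEAD1 were higher with cetuximab in 6 of 6 pairs, which held for 10.5% of all genes. AJUBA passed the test across lines in edgeR, with a log2 fold change of 0.46 ± 0.11 (SE) and an FDR of 0.0361, where 3.67% of genes passed and 2.53% passed as higher. The call was kept in 2 of 12 fits that left out 1 sample each (SCC1 PBS replicate 1 or SCC25 cetuximab replicate 1), with FDR between 0.0454 and 0.0948 and log2 fold changes between 0.41 and 0.50. With the replicate block CTGF (0.70 ± 0.13, FDR 0.0157), ANKRD1 (1.71 ± 0.33, FDR 0.0172), AJUBA (0.46 ± 0.09, FDR 0.0213) and LATS2 (0.53 ± 0.11, FDR 0.0219) passed, beside 11.6% of all genes. DESeq2 called ANKRD1 and AJUBA, beside 10.2% of all genes. Without the filter on low counts edgeR called ANKRD1 (FDR 0.00435), and AJUBA lost its call (FDR 0.0514).

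The median log2 fold change of the 10 genes was 0.41 across lines, beside 0.01 over all genes tested. The 10 were chosen with earlier results of these data known, so that this difference is a description. SCC1, SCC6 and SCC25 had medians of 0.33, 0.16 and 0.42, and over all genes it was 0.00, 0.00 and −0.01. No difference of the cetuximab effect between lines was found for these genes: 0 of the 10 passed the interaction test of edgeR, where 0% of genes did, and 0 had an unadjusted p under 0.05, where 7.36% did. With the replicate block (1.29% of genes) and in DESeq2 (1.61%), 0 of the 10 passed as well.

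The untreated samples show how far the lines differ before treatment. SCC1 had the highest levels of CTGF, CYR61 and AJUBA, SCC6 had 17.7-fold the YAP1 of SCC1, and the CTGF, CYR61 and AMOTL2 values of both SCC25 samples lay below those of all PBS samples of the other lines. In SCC25 against SCC1, CTGF (log2 fold change −2.54 ± 0.49 SE), CYR61 (−2.75 ± 0.38), AMOTL2 (−2.28 ± 0.39) and AJUBA (−1.37 ± 0.18) were lower at FDR of 0.00232, 0.000362, 0.00118 and 0.000248 by edgeR. These were 4 of the 10 genes, beside 40.8% of all genes, and 17.3% of all genes were lower.

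In SCC6 against SCC1, 3 of the 10 passed in edgeR, beside 40.2% of all genes. CTGF (−1.74 ± 0.47, FDR 0.0142) and AJUBA (−1.17 ± 0.18, FDR 0.000563) were lower and YAP1 higher (4.15 ± 0.35, FDR 1.27e-05). Leaving out either PBS replicate of SCC6 took CTGF over the threshold, to an FDR of up to 0.0900, at log2 fold changes between −1.88 and −1.62 over all samples left out. In SCC25 against SCC6, CYR61 (−1.92 ± 0.37, FDR 0.00245), AMOTL2 (−2.15 ± 0.39, FDR 0.00163) and YAP1 (−4.78 ± 0.36, FDR 7.28e-06) were lower, 3 of the 10 beside 40.9% of all genes (18.7% lower).

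The shares of members called were thus near those of all genes in each pair of lines. Of the remaining factors, WWTR1, TEAD1 and TEAD4 did not pass in edgeR between any lines, and their PBS values ranged over 20.3 to 38.3, 7.80 to 37.7 and 20.9 to 32.9 CPM. The replicate block takes the differences between replicates out of the spread but pairs no samples of different lines. Its contrasts between lines compare the fitted levels of replicate 1, not the means of both replicates, so that the estimates change too. CTGF in SCC25 against SCC6 was −0.79 ± 0.46 (SE) without the block and −1.60 ± 0.17 with it. In that fit 6 of the 10 passed in each comparison, where 50% (SCC6 and SCC1), 49.8% (SCC25 and SCC1) and 51.2% (SCC25 and SCC6) of all genes did.

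YAP1 set SCC6 apart in every sample. It stood at 725 and 431 CPM with PBS and at 613 and 453 CPM with cetuximab in SCC6. Its lowest SCC6 sample was 11.6 times the highest sample of the other lines, a gap over 10 times that 0.754% of all genes had. Its cetuximab change there did not pass in edgeR, at a log2 fold change of −0.12 ± 0.30 (SE) and an FDR of 0.882.

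Cell by cell the same held. With each cell thinned to 15000 UMIs, 99.9% and 99.2% of SCC6 PBS cells and 99.8% and 99.6% of SCC6 cetuximab cells had a YAP1 UMI. The median cell held 5 to 9 YAP1 UMIs in the SCC6 samples and 0 in all 8 samples of the other lines. In SCC1 and SCC25 51.6% to 79% of cells had no YAP1 UMI at that depth, and no cell in those lines reached 10, whereas 246 to 1136 cells per SCC6 sample did.

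After the YAP1 values were seen, its chromosomal neighbours were examined. YAP1 (chromosome 11, 102110447 to 102233424, GRCh38) has 10 neighbours within 2 Mb on either side with a mean of at least 10 CPM over the 12 samples. Some of them, among them ARHGAP42, CEP126 and DYNC2H1, reach that mean through SCC6, so that the number that differ is in part set by this limit, and their values are given as a description. BIRC2, TMEM123 and DCUN1D5 exceeded 10 CPM in every sample of every line.

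The neighbours include the apoptosis inhibitors BIRC2 and BIRC3, which lie right beside YAP1. BIRC2 stood at 314 to 403 CPM in the SCC6 samples and at 22.4 to 44.8 CPM elsewhere. TMEM123, a cell surface mucin-like protein, stood at 1873 to 3022 CPM against 107 to 168 CPM. DCUN1D5, a neddylation factor, had 622 to 1026 CPM against 96.1 to 137 CPM, and DYNC2H1, a dynein of cilia, 58.7 to 73.8 CPM against 1.78 to 4.06 CPM.

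These 4 genes and CEP126, ARHGAP42 and CFAP300 were higher in every SCC6 sample than in all others. The matrix metalloproteinase genes MMP1 and MMP13 were not, because SCC25 expressed them too, at 19.4 to 254 and 27.3 to 133 CPM. BIRC3 varied within SCC6, from 25.8 to 590 CPM, and its lowest value lay below 1 SCC25 cetuximab sample. DNA copy number was not analysed here.

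**Figure D3:**
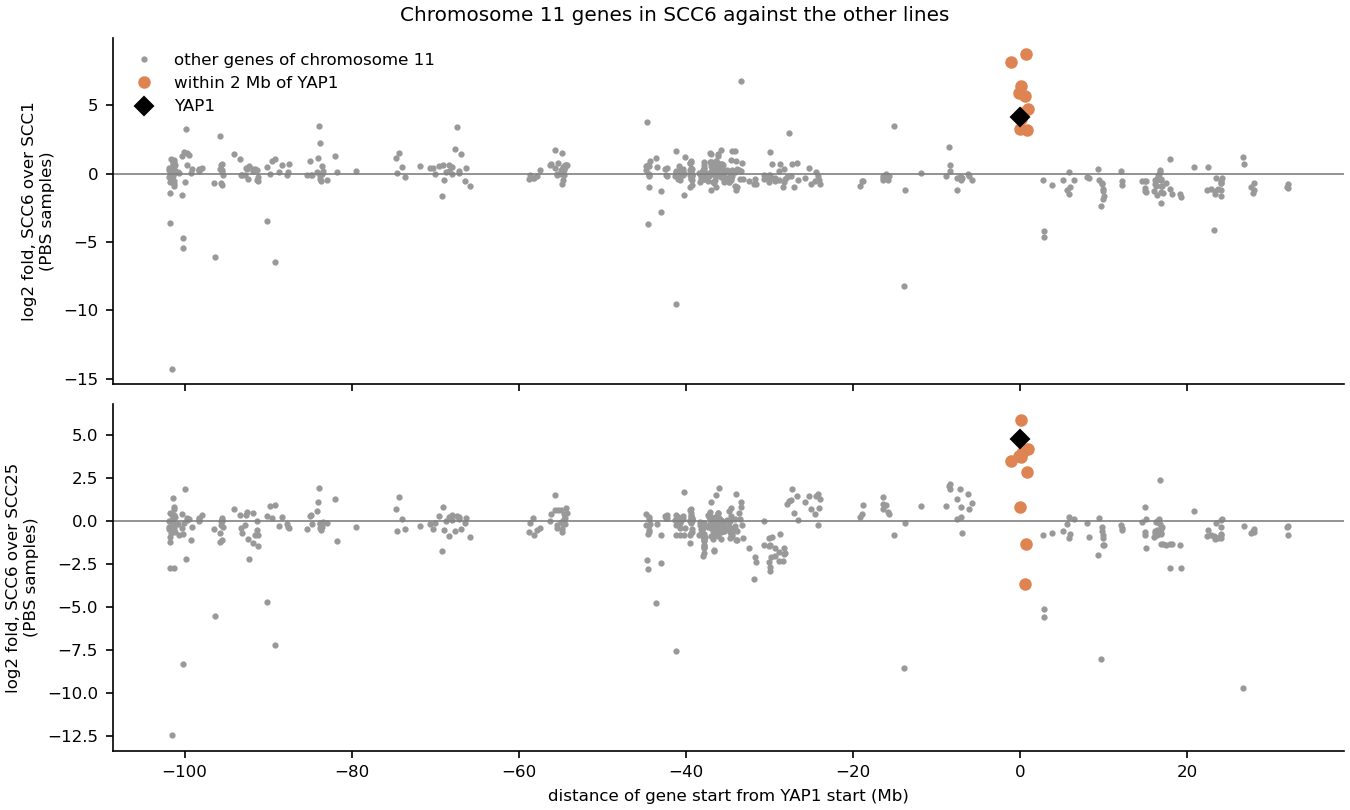
Log2 fold change of untreated SCC6 over SCC1 (top) and over SCC25 (bottom) against the distance from YAP1 in megabases (Mb). Shown are the chromosome 11 genes with a mean of at least 10 CPM. Distance is the gap between the nearest ends of the gene and YAP1, although the axis label names the starts. YAP1 (black diamond) lies at 4.15 and 4.78. Of the 10 neighbours within 2 Mb (orange), some kept only through their SCC6 level, all lie above 0 at the top and MMP1 and MMP13 below 0 at the bottom, and the 457 other genes (grey) have medians of −0.08 and −0.27.

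The high YAP1 level in SCC6 did not go with the highest CTGF or CYR61. Untreated SCC6 had less CTGF than SCC1, as given above, and its CYR61 was 314 and 253 CPM against 502 and 506 CPM (log2 fold change −0.83 ± 0.36 SE, FDR 0.0923 in edgeR). With the replicate block, which compares the fitted levels of replicate 1, the CYR61 estimate was −0.99 ± 0.29 (SE, FDR 0.0225 in edgeR). The ANKRD1, AMOTL2 and LATS2 values of untreated SCC6 overlapped with those of SCC1.

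Single cells showed how the target transcripts were spread. At 15000 UMIs per cell, 76.5% and 73.0% of SCC1 PBS cells and 86.6% and 83.8% of SCC1 cetuximab cells had a CTGF UMI, and 36.3% and 39.98% against 65.0% and 59.1% in SCC6. In SCC25 it was 17.5% and 28.9% against 19.8% and 33.0%. The share was thus higher with cetuximab in 6 of 6 pairs. Each library held cells of 1 line, so that no cells lacking these genes gave the share that free RNA lends, and its part was not tested.

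AJUBA followed, from 44.9% and 41.3% of SCC6 cells to 61.7% and 63.0%, and from 43.1% and 40.1% of SCC25 cells to 52.9% and 56.0%. ANKRD1 was found in few cells, 3.23% to 15.3% with PBS and 16.4% to 27.2% with cetuximab. Its UMIs were concentrated, with up to 23 in a single thinned cell, and its variance was 1.55 to 8.10 times its mean. That ratio lay between 2.00 and 9.35 for CTGF and between 1.92 and 13.7 for CYR61, while for YAP1 in SCC1 and SCC25, WWTR1, TEAD1, TEAD4 and LATS2 it did not exceed 1.20, near the value of 1 that counting alone gives.

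Cells with a CTGF UMI held 1.496 to 3.86 times as many CYR61 UMIs as cells without one in the 12 samples, at equal depth. The ratio was highest in SCC1, at 2.42 and 2.33 with PBS and 3.86 and 2.96 with cetuximab. In SCC6 it was 1.68 and 1.496 with PBS and 1.74 and 1.77 with cetuximab.

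Cells of the same sample were then divided by a second gene, which leaves line, treatment and library equal. Between cells with and without a UMI of MKI67, the proliferation antigen, CTGF was lower in the MKI67-positive cells in 12 of 12 samples, at 0.392 to 0.885 times the level (median 0.601). AMOTL2 was lower in 12 of 12 as well (median 0.813), and TEAD4 higher in 12 of 12 (median 1.21) and TEAD1 in 11 of 12 (median 1.16). YAP1 (median 0.996), WWTR1 (0.981) and AJUBA (1.02) lay on both sides of 1.

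The share of MKI67-positive cells moved with treatment, from 64.5% and 59.8% to 23.6% and 39.0% in SCC1, from 56.1% and 62.8% to 45.3% and 47.7% in SCC6, and from 61.7% and 39.0% to 42.2% and 24.5% in SCC25. In MKI67-negative cells alone CTGF was higher with cetuximab in 6 of 6 pairs, with a median log2 ratio of 0.81 beside 0.90 in all cells. In MKI67-positive cells it was higher in 5 of 6 (median 0.67). AJUBA, ANKRD1 and LATS2 were higher in 6 of 6 pairs in either class, whereas TEAD4 was lower in 5 of 6 pairs in MKI67-negative cells and in 3 of 6 in MKI67-positive cells.

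Between the fifth of cells with most and the fifth with fewest UMIs of the 11 immediate early genes, CTGF was higher in 12 of 12 samples (1.14 to 5.26 times, median 2.74) and CYR61 in 10 of 12 (0.917 to 4.12 times, median 2.19). AMOTL2 and LATS2 were higher in 11 of 12 (medians 1.46 and 1.34). Divided in the same way by YAP1 UMIs, CTGF was higher in 8 of 12 samples (median 1.07) and CYR61 in 7 of 12 (median 1.02), while AMOTL2 was higher in 12 of 12 (median 1.18) and WWTR1 in 11 of 12 (median 1.20). Cells of 1 sample are not replicates, and these ratios are descriptions by sample.

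**Figure D4:**
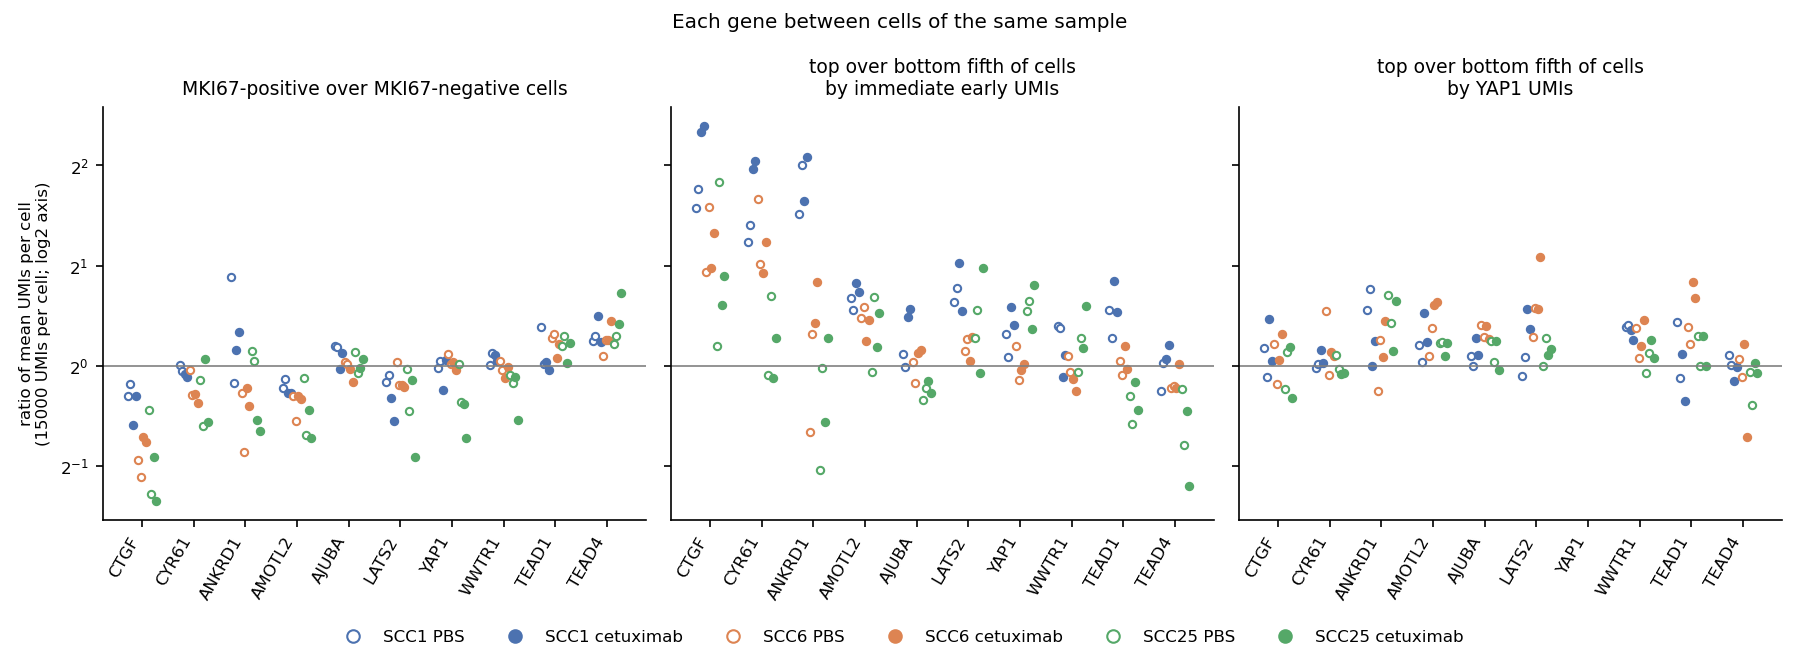
Ratio of mean UMIs per cell (each cell thinned to 15000 UMIs, log2 axis) between 2 classes of cells of the same sample, for each gene and the 12 samples, divided by MKI67, by immediate early UMIs and by YAP1 UMIs. CTGF lies below 1 in 12 of 12 samples in the left panel and above 1 in 12 of 12 in the middle panel, and TEAD4 lies above 1 in 12 of 12 in the left panel.

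Beyond the 10 genes, 24 other targets of YAP and TEAD and 33 other pathway genes were read in the same fits. These lists, too, were chosen with earlier results of these data known. The target list had a median log2 fold change with cetuximab of 0.38 across lines, beside 0.01 over all genes, and 4 of 24 passed in edgeR, all higher (3.67% of all genes passed), among them ARHGEF17, TGFB2 and THBS1. With the replicate block (11.6% of all genes) 8 were higher and 2 lower, the lower ones being BIRC5 and ANLN, which act in mitosis and cytokinesis. Within lines 0 of 24 passed in SCC1, 3 in SCC6, among them TGFB2 and RBMS3, and 0 in SCC25, beside 0.0168%, 3.81% and 0% of all genes. With the block 7, 11 and 4 did, 5, 9 and 4 of them higher, beside 4.45%, 20.1% and 0.978%.

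TGFB2, a ligand of the TGF-beta family, had the largest log2 fold change across lines of the 24 in edgeR. It stood at 4.36 and 1.97 CPM with PBS and 26.4 and 17.7 CPM with cetuximab in SCC1, at 4.12 and 3.57 against 19.3 and 27.8 CPM in SCC6, and at 20.3 and 13.2 against 65.5 and 67.5 CPM in SCC25. No treated sample overlapped with an untreated sample of its line, and the log2 fold change across lines was 2.47 ± 0.23 (SE, FDR 0.000903 in edgeR).

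THBS1, the matrix protein thrombospondin, rose across lines by 1.46 ± 0.30 on the log2 scale (SE, FDR 0.0254 in edgeR) and stood in SCC6 at 28.7 and 26.9 CPM with PBS and 96.9 and 119 CPM with cetuximab. The call for THBS1 was kept in 6 of 12 fits with 1 sample left out, against 12 of 12 for TGFB2.

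Among the 33 pathway genes, of which 31 were tested, 1 passed across lines in edgeR (FAT4; 3.67% of all genes) and 9 with the replicate block (11.6%), all higher. FAT4 rests on low counts, at 0.0597 and 0.109 CPM in SCC6 PBS, 0.902 and 0.531 CPM in SCC6 cetuximab and at most 1.97 CPM in any sample. In SCC6, TEAD2, another TEAD factor, rose from 11.1 and 15.7 to 39.1 and 34.0 CPM (1.44 ± 0.26 SE, FDR 0.0187 in edgeR). FRMD6, a scaffold upstream of the Hippo kinases, rose from 43.0 and 27.4 to 91.1 and 90.1 CPM (1.36 ± 0.31, FDR 0.0411). WTIP and FAT4 also passed there, 4 genes in all and none lower (3.81% of all genes), and the pathway list had 0 calls in SCC1 and SCC25. The fit with the replicate block had 9 higher and 2 lower in SCC6 (TAOK3 and CRB3; 20.1% of all genes), 1 higher in SCC1 (VGLL1; 4.45%) and 0 calls in SCC25 (0.978%). VGLL4, which competes with YAP for TEAD, passed in SCC6 with the block (0.74 ± 0.15, FDR 0.0126) and not without it (FDR 0.106).

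Between untreated lines, SCC25 stood apart in FAT1, the giant protocadherin upstream of the Hippo kinases. Its PBS libraries held 1 and 0 UMIs of FAT1 and its cetuximab libraries 0 and 0, which allows up to 0.0341 CPM (unscaled) at 3 counts in the shallowest of those at 0, and the other 8 libraries held 1397 to 5667. SCC25 also had less VGLL1, a cofactor that binds TEAD, at 0.623 and 2.59 CPM with PBS against 15.9 and 17.8 CPM in SCC1 and 71.6 and 76.0 CPM in SCC6. AMOTL1, a relative of AMOTL2, was lower there too, at 9.44 and 7.57 CPM against 37.9 and 35.2 and 36.3 and 24.9 CPM. Of the 31 pathway genes, 13 were lower and 4 higher in SCC25 than in SCC1, where 17.3% of all genes were lower and 23.4% higher (median log2 fold change −0.67, all genes 0.04). Against SCC6 11 were lower and 2 higher, where 18.7% of all genes were lower and 22.2% higher (median −0.55, all genes 0.00).

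The target list was called between lines at shares near those of all genes. In SCC6 against SCC1 11 of 24 passed (7 lower and 4 higher, beside 40.2% of all genes), in SCC25 against SCC1 9 (5 lower and 4 higher, beside 40.8%), and in SCC25 against SCC6 10 (4 lower and 6 higher, beside 40.9%). CCDC80, an extracellular matrix protein, was highest in SCC1 as CTGF was, at 113 and 90.4 CPM in SCC1 PBS, 10.99 and 10.3 CPM in SCC6 PBS and 17.4 and 35.7 CPM in SCC25 PBS. TGFB2 was the other way round between these lines, with 5.30-fold the SCC1 level in SCC25 without treatment. AMIGO2 stood highest in SCC6 PBS, at 251 and 193 CPM against 57.8 and 44.3 CPM in SCC1 and 77.6 and 43.0 CPM in SCC25. ASAP1 did as well, at 295 and 146 CPM against 64.8 and 47.0 CPM in SCC1 and 61.4 and 28.7 CPM in SCC25.

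**Figure D5:**
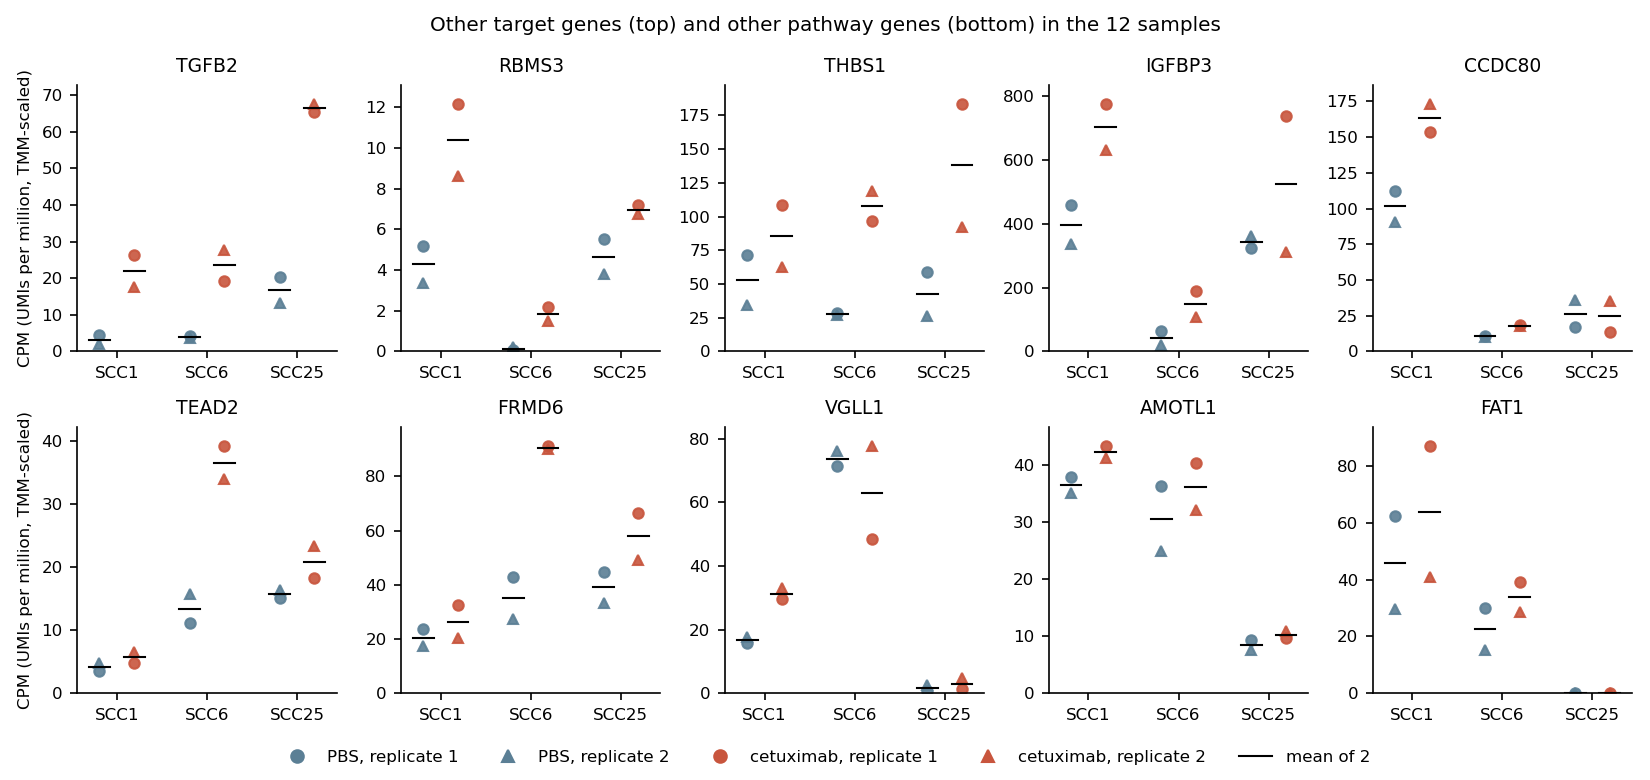
CPM (linear axes from 0) in the 12 samples for 5 other target genes (top) and 5 other pathway genes (bottom), with the symbols of the plot of member levels. TGFB2 is higher with cetuximab in all 3 lines, TEAD2 and FRMD6 are highest in the SCC6 cetuximab samples, and FAT1 is at 0 to 0.0125 CPM in the SCC25 samples.

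By pattern over the 12 samples, after the mean of each line was subtracted from log2(CPM + 1), the genes nearest to CTGF among 7557 with at least 10 CPM were PBXIP1, CXXC5, CCDC80, TMC4 and S1PR5, at root mean square differences of 0.18 to 0.24 where the median gene was at 0.61. Nearest to CYR61 were ZYX, PLK2, DAPK3, EPS8L1 and LIPA, at 0.18 (median gene 0.47). ZYX encodes zyxin, a protein of focal adhesions, and its log2 fold changes with cetuximab were 0.49 in SCC1, 0.39 in SCC6 and 0.60 in SCC25. CCDC80 belongs to the target list as well.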

How the data were processed

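Each line had 1 deposited table of raw UMI counts, whole numbers by gene and by cell. The authors aligned the reads with CellRanger (methods of the study), and the labels name the build GRCh38; the aligner's version and the annotation are not given in the sources used here. Counts of the 24 symbols on a second line were added. All 23914 deposited cells were used, no doublet caller was run, and samples shared 1 to 13 cell barcodes.

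UMIs were summed per sample and tested by quasi-likelihood in edgeR 4.0.16 (R 4.3.3, glmQLFTest; TMM factors, filterByExpr, 6 group means, two-sided, Benjamini-Hochberg FDR with a threshold of 0.05 over 17897 genes). DESeq2 was version 1.42.0. CPM are TMM-scaled. This replaced a test on single cells, which are not replicates. The fit was tested on simulated data. Deviations of same-numbered PBS and cetuximab samples from their group means correlated at 0.377 (SCC1), 0.349 (SCC6) and 0.598 (SCC25), all over 0.1, so that the numbers were taken to pair samples within a line and the fit with a replicate block is given beside the main one. Single cells were thinned to 15000 UMIs, which left out 851 cells, 0.847% to 9.18% per sample. A positive cell had 1 or more UMIs. At this depth the spread between replicates, not counting, limited precision.

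Beside the 10 members, up to 3 genes per list and comparison were named, those of largest change among genes with an FDR under 0.05, with or without the block, and a mean of at least 10 CPM, and the 5 nearest to CTGF and to CYR61; FAT4, WTIP, RBMS3, ARHGEF17, ANLN and the neighbours of YAP1 were named after their values were seen. The members and lists were chosen with earlier results of these data known. Alternatives were another normalisation, no filter on low counts, DESeq2, the block, each sample left out, and cells of high UMI count or high mitochondrial share left out. Chromosome positions and promoter windows are from RefSeq (GRCh38.p14). The values of 1 gene of the target list are not reported here.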

Additional observations from a re-analysis of the deposited data

Results flagged for a closer look

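RBMS3, an RNA-binding protein on the list of other targets, differed in its cetuximab effect between lines in the interaction test of edgeR with the replicate block, at an FDR of 0.0381, and not without the block, at 0.292. It stood at 0.0835 and 0.196 CPM with PBS and 2.18 and 1.52 CPM with cetuximab in SCC6, at 5.198 and 3.36 against 12.1 and 8.60 CPM in SCC1, and at 5.51 and 3.81 against 7.20 and 6.75 CPM in SCC25. All 6 pairs were higher with cetuximab. The SCC6 values rest on low counts.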

How the results depend on the processing

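With cetuximab, 2 of the 10 genes passed in SCC1, 2 in SCC6 and 4 across lines in edgeR with the replicate block (0, 0 and 1 without it). Without the filter on low counts 1 passed in SCC1, and in DESeq2 1 passed in SCC6 and 2 across lines. Leaving out 1 sample each gave 0 to 2 across lines and 2 to 3 for untreated SCC6 against SCC1. Between untreated lines, 6 passed for SCC6 against SCC1 and 6 for SCC25 against SCC6 with the replicate block (3 and 3 without it). These block contrasts compare the fitted levels of replicate 1, so that the estimates differ as well as the spread. Without the filter 5 passed for SCC6 against SCC1, and the cause was not tested. The block changed no other of these counts by over 1.5 times. Of 1969 recomputed values of single genes, 1815 kept their direction and side of the threshold, 43 lost the call, 65 gained it, and 46, past the threshold in neither fit, changed sign, among them AMOTL2 and CYR61 in SCC6 and YAP1 and WWTR1 across lines. In MKI67-positive cells, chosen after the data were seen, the median log2 ratio of YAP1 was −0.01, against 0.21 in all thinned cells. Shares of positive cells depend on depth and moved by over 1 SD in 58 of 60 groups without thinning. Of the genes nearest by pattern, 3 of 5 were the same for both CTGF and CYR61 with a pseudocount of 5. With 2 replicates per group, many fold changes below 2 could not be told from replicate spread.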

Other observations

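LATS2, YAP1 and TEAD1 were higher in replicate 1 than in replicate 2 in 6 of 6 groups, which 13.7% of the 17897 genes tested were. For TEAD1 the replicates stood at 16.4 and 9.44 CPM in SCC1 PBS, at 37.7 and 15.9 CPM in SCC6 PBS and at 19.97 and 7.80 CPM in SCC25 PBS, and the median log2 ratio of replicate 1 to replicate 2 was 0.76 over the 6 groups. WWTR1 and AMOTL2 were higher in replicate 1 in 5 of 6 groups, and CTGF and TEAD4 in 3 of 6. The reverse, replicate 2 higher in 6 of 6 groups, held for 14.8% of genes. What the replicate numbers stand for across lines is not given in the labels.

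Of the other targets, 15 had a RefSeq promoter window, and the TEAD core letters were found in 5 of these, against 16.7% of all 27305 genes with a window.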
